A study of Mus musculus with 46 samples.

Results

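The genes described here encode 9 enzymes that build asparagine, serine and proline or pass the carbon of serine into the mitochondrial folate cycle: Asns, Phgdh, Psat1, Psph, Shmt2, Mthfd2, Mthfd1l, Aldh18a1 and Pycr1. They were chosen by gene symbol, and each of the 9 was listed in every table, where 9857 symbols were shared between DMSO and torin 1 libraries. The cells were EPP2, a murine pancreatic cancer line in which Cas9 is expressed from a doxycycline-inducible cassette. The line with inducible Cas9 is described as a single-cell-derived clone. Guide RNAs were then transduced and cells selected with drug, so the cultures are selected pools and not separate clones. In Ctu1 iKO cultures, labelled Ctu1 KO, guide RNAs against Ctu1 were combined with 300 ng/ml doxycycline for 4 days. The sample records used here give 300 ng/ml doxycycline for 4 days for the control cultures, labelled WT, as well. By the authors' methods, controls carried guide RNAs against non-coding regions or received no doxycycline, and which of these each library was is not stated. Both kinds of culture then received DMSO or 300 nM torin 1, an inhibitor of the mTOR kinase, for 2 h. There were 23 ribosome footprint libraries and 23 poly(A) RNA-seq libraries, with the same groups and replicate numbers. By the authors' methods, RNA was isolated from part of the lysates made for ribosome profiling. The labels do not say whether a number marks the same culture in both. Each set comprised 6 control with DMSO, 5 Ctu1 iKO with DMSO, 6 control with torin 1 and 6 Ctu1 iKO with torin 1. The cells grew in medium with serum and added glutamine, which all groups shared.

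Serine is made from the glycolytic intermediate 3-phosphoglycerate by Phgdh (the dehydrogenase that opens the pathway), Psat1 (the transaminase that takes nitrogen from glutamate) and Psph (the phosphatase that releases serine). In mitochondria, Shmt2 splits serine into glycine and a folate-bound carbon unit, Mthfd2 oxidizes that unit and Mthfd1l releases it as formate for purine and thymidylate synthesis. Proline is made from glutamate by Aldh18a1, which forms pyrroline-5-carboxylate, and by the mitochondrial reductase Pycr1, while Asns makes asparagine from aspartate and glutamine. Many of these genes are textbook targets of Atf4, the transcription factor of the amino acid response, and mTORC1 is known to raise Atf4 activity. Ctu1 adds sulfur to the wobble uridine of the tRNAs that read AAA, CAA and GAA, the codons together called VAA.

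The 9 genes lie on 6 chromosomes of the GRCm38 genome (GENCODE M21). Asns is at 6:7675169-7693254, Phgdh at 3:98313170-98339990, Psat1 at 19:15904678-15947337, Psph at 5:129765558-129787449 and Shmt2 at 10:127517123-127522444. Mthfd2 is at 6:83305691-83325908, Mthfd1l at 10:3973118-4167081, Aldh18a1 at 19:40550257-40588463 and Pycr1 at 11:120635712-120643769. Mthfd1l is on the plus strand and the others are on the minus strand. Psph shares exonic bases with Cct6a on the opposite strand, and Shmt2 with Ndufa4l2, so reads there cannot be assigned without strand, and the strand setting of the counts is not given in the sources used here. Phgdh has 17 processed pseudogenes with 90.4% to 98.7% identity to its transcript, and Psat1 and Shmt2 have 1 each, so counts of these genes are uncertain where a read could be placed on a copy. None of the copies was listed in the tables.

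The promoters of Asns and Pycr1 are shown because they hold the letters TGATGNAA, the core of the C/EBP-ATF response element to which Atf4 heterodimers are known to bind. The promoter of Psph is shown as the one without these letters among the 3 enzymes whose footprints rose most with Ctu1 loss. Each line gives the 150 bases before the RefSeq start on the minus strand, 5′ to 3′, with the motif in capitals (Asns chr6:7693210-7693359, Pycr1 chr11:120643749-120643898, Psph chr5:129787254-129787403, GRCm38.p6).
Asns: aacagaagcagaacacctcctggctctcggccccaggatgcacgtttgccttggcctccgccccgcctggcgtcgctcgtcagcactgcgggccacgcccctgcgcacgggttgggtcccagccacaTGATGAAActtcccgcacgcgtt
Pycr1: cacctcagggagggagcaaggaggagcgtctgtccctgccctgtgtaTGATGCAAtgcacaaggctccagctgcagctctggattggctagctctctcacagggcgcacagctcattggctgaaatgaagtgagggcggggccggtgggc
Psph: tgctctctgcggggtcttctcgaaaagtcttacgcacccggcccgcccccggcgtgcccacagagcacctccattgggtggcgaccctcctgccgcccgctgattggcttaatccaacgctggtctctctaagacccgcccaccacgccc
The motif begins at position -23 from the RefSeq start in Asns and -103 in Pycr1. The GENCODE genes given above begin upstream of these RefSeq starts, so the Asns motif and the whole Psph stretch lie inside them. Over windows of 300 bases (250 before and 50 after the start), searched on both strands, 2 of the 9 enzymes held it, against 2.67% of the 8245 listed genes with a window. A match is a string of letters and no measured binding.

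The coding sequences of the enzymes held VAA codons at a median of 5.33%, against 6.06% over 10146 listed genes with a coding sequence. The share ran from 2.58% in Shmt2 to 7.66% in Asns. Of the enzymes, 2 of 9 lay above that median. For AAA alone, the median was 2.01% for the enzymes and 2.17% for the listed genes, with the lowest share in Shmt2 (0.595%) and the highest in Asns (3.39%). For AAA, 4 of 9 lay above the median of the listed genes.

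Footprint libraries held 4602092 to 52907878 counts and RNA-seq libraries 129881946 to 325494304. RNA-seq replicates 1 and 2 held 129881946 to 158915842 counts and replicates 3 to 6 held 214922186 to 325494304, without overlap. Each RNA group of replicates 1 to 3 thus mixes libraries of both depths, and the part of this split in the results was not tested. Ctu1 itself, listed in the DMSO tables, had 1.79 ± 0.416 CPM (SD, n = 5) in footprints of Ctu1 iKO cultures and 2.53 ± 0.650 CPM (n = 6) in control, a difference that did not pass a two-sided exact permutation test (p = 0.0606). In RNA of replicates 1 to 3 the means were 4.63 and 4.62 CPM (exact p = 0.90, where 3 against 3 cannot go below 0.10), and a count over the gene measures its abundance and not whether it was edited. Each library was also placed between the DMSO and torin 1 groups and between the control and Ctu1 iKO groups. The 300 genes weighted and the ends of each scale were taken from replicates 1 and 2, so the separation of those libraries was partly fixed in advance. Footprint libraries lay at -0.04 to 0.21 with DMSO and 0.65 to 1.29 with torin 1 on the first scale, and at -0.10 to 0.23 in control and 0.33 to 1.63 in Ctu1 iKO on the second, without overlap. Replicates 3 to 6, which did not set the scales, lay at most at 0.21 with DMSO and at least at 0.65 with torin 1. On the second scale they lay at most at 0.23 in control and at least at 0.33 in Ctu1 iKO. The Ctu1 iKO DMSO replicates 3 to 5 were the lowest of the Ctu1 iKO footprint libraries, at 0.40, 0.33 and 0.35. They are not among the libraries that set the scale, so their place is no measure of weaker Ctu1 loss. Among RNA-seq libraries numbered 4 to 6, the Ctu1 iKO DMSO replicates 4 and 5 lay at 0.99 and 0.90 of the way to torin 1, and the control torin 1 replicates 5 and 6 lay at -0.02 and -0.03, and at 0.55 and 0.64 of the way to Ctu1 iKO. The Ctu1 iKO torin 1 replicates 5 and 6 lay at 0.24 and 0.27 of the way to torin 1, and at 0.05 and -0.02 of the way to Ctu1 iKO. RNA results below use replicates 1 to 3, and values of the others are given apart. Of epithelial markers, Krt8, Krt18 and Krt19 were listed in each table, Epcam with DMSO alone and Cdh1 in none, while the 5 mesenchymal markers were listed throughout and none of the 5 acinar or 3 immune markers was.

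Before any treatment, the enzymes differed widely in ribosome footprints. All levels are CPM, counts scaled to a common library total with TMM factors, and comparisons between genes are per kilobase of coding sequence. Such levels are relative, so fewer cells of a kind and less RNA per cell cannot be told apart. In control cells with DMSO, Psat1 had the highest level at 528.0 ± 40.4 CPM per kb (SD, n = 6). Shmt2 (208 ± 15.4), Phgdh (191 ± 10.9) and Asns (189 ± 24.1) followed, and neighbours among these 3 overlapped in range. Aldh18a1 (131 ± 15.03), Psph (119 ± 17.7) and Mthfd2 (116 ± 17.5) formed the next overlapping run. Mthfd1l (66.8 ± 5.77) and Pycr1 (30.6 ± 6.34) were apart from the genes above them. In RNA, per kilobase of transcript, Psat1 was again highest (224 ± 11.3, n = 3) and Pycr1 lowest (16.4 ± 3.52), and Psph lay eighth at 23.7 ± 2.36.

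**Figure D1:**
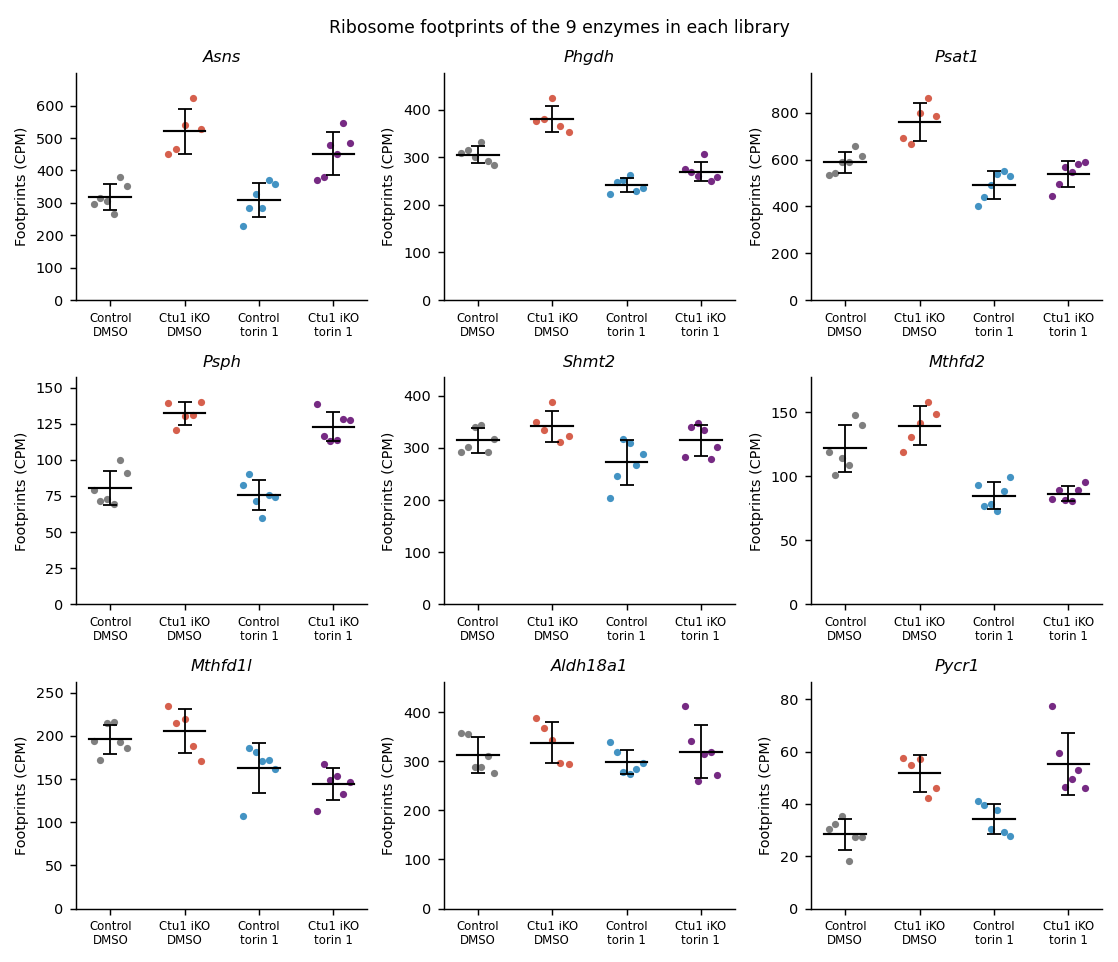
Ribosome footprints of each enzyme in CPM (y axis, from 0) in the 4 groups, with a point for each library, a bar for the mean and whiskers for the SD (n = 5 for Ctu1 iKO with DMSO and 6 elsewhere). The points of Asns, Psph and Pycr1 in Ctu1 iKO lie above those of control under DMSO and under torin 1, while those of Mthfd2 are lower with torin 1 in both genotypes.

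With DMSO, loss of Ctu1 raised the footprints of Asns, Pycr1 and the 3 serine synthesis enzymes. The rise was largest for Pycr1 (1.81-fold), close to 1.64-fold for Asns and Psph, and smaller for Psat1 (1.30-fold) and Phgdh (1.25-fold). Thus 5 of the 9 enzymes were higher at an adjusted p under 0.05 (edgeR quasi-likelihood test, Benjamini-Hochberg over 10397 genes), where 1.63% of tested genes were called higher. None was lower, and the median log2 change was 0.32 for the enzymes and 0 for all genes.

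Asns footprints were 449.4, 466.6, 539.6, 624.9 and 527.4 CPM in the Ctu1 iKO cultures, against a lowest, median and highest value of 265.2, 310.2 and 378.7 in the 6 control cultures. The groups did not overlap, and the log2 change was 0.71 ± 0.11 (SE, edgeR adjusted p = 0.00462). The share of all genes whose groups did not overlap was not counted in this or the other tested comparisons, so overlap describes single genes.

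Of the serine enzymes, Psph read 139.1, 120.5, 130.1, 130.9 and 140.2 CPM in Ctu1 iKO and 69.73, 76.08 and 99.55 (lowest, median, highest) in control. Psat1 read 692.1, 666.1, 797.2, 864.9 and 784.0 CPM in Ctu1 iKO and 536.3 to 656.7 with a median of 587.8 in control. Phgdh read 376.7, 381.2, 425.2, 365.9 and 352.9 CPM in Ctu1 iKO and 284.5 to 332.9 with a median of 304.2 in control. In each of these 3 genes the lowest Ctu1 iKO culture stood above the highest control culture. The log2 changes were 0.72 ± 0.11 for Psph (edgeR adjusted p = 0.00393), 0.38 ± 0.09 for Psat1 (0.0375) and 0.32 ± 0.07 for Phgdh (0.0365). Cct6a, which overlaps Psph on the other strand, had a log2 change of -0.24 ± 0.10 (adjusted p = 0.245).

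The one-carbon enzymes did not pass the test. Shmt2 changed by 0.12 ± 0.08, Mthfd2 by 0.20 ± 0.12 and Mthfd1l by 0.07 ± 0.10 on the log2 scale (edgeR adjusted p = 0.475, 0.402 and 0.752), and the groups overlapped for each.

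In the proline branch, Pycr1 read 57.72, 54.85, 57.19, 42.43 and 45.92 CPM in Ctu1 iKO and 18.14, 29.0 and 35.23 (lowest, median, highest) in control, with no overlap. Its log2 change was 0.86 ± 0.15 (edgeR adjusted p = 0.0108), while that of Aldh18a1, the enzyme before it, was 0.11 ± 0.10 (adjusted p = 0.616). The calls of Phgdh and Psat1 lay near the threshold: they were lost in 9 and 8 of the 11 fits that left out 1 library. With replicates 3 to 6 alone, Asns, Psat1 and Psph were called, where 0.962% of genes were called higher. With replicates 1 to 3 alone no enzyme was called in this or any other footprint comparison. Of all genes, 0.0192% were then called in either direction in the present one, 1.4% and 1.81% for torin 1 in control and Ctu1 iKO, and 0.0101% for Ctu1 loss with torin 1. For Ctu1 loss with DMSO the log2 changes were then 0.67 for Asns, 0.80 for Psph, 0.79 for Pycr1, 0.37 for Psat1 and 0.36 for Phgdh.

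In RNA of the same comparison, Asns, Psat1 and Psph were higher in Ctu1 iKO, which is 3 of 9 enzymes where 3.32% of 10119 genes were called higher. Asns read 390.4, 375.1 and 332.2 CPM in Ctu1 iKO and 275.4, 255.0 and 206.5 in control. Psph read 64.03, 62.32 and 57.92 CPM against 44.0, 42.97 and 36.46, and Psat1 read 759.5, 755.6 and 847.0 against 616.1, 584.4 and 557.2. None of the 3 genes overlapped between groups. Full separation of 3 against 3 libraries has a two-sided exact permutation p of 0.10, and the share of all genes without overlap was not counted. Their log2 changes were 0.59 ± 0.12 for Asns (edgeR adjusted p = 0.0349), 0.60 ± 0.09 for Psph (0.0185) and 0.44 ± 0.08 for Psat1 (0.0261). Psph lost its call in 4 of 6 fits that left out 1 library and the other 2 genes in 5, with adjusted p-values up to 0.143.

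Pycr1 RNA read 46.94, 44.76 and 45.18 CPM in Ctu1 iKO and 36.42, 31.7 and 23.48 in control, and Phgdh read 305.0, 302.9 and 357.3 against 245.9, 231.7 and 270.4. Both genes were without overlap, with log2 changes of 0.60 ± 0.15 and 0.39 ± 0.09 that did not pass the test (edgeR adjusted p = 0.0576 and 0.0566). Same-numbered RNA libraries deviated together, although different numbers were not compared. With the replicate number as a block 7 enzymes were higher, where 14.3% of genes were. Those were the 3 above with Phgdh, Mthfd2 (0.24, adjusted p = 0.0104), Aldh18a1 (0.18, adjusted p = 0.0354) and Pycr1. Shmt2 and Mthfd2 were without overlap as well and not called in the test without the block. The summed RNA level of the 4 listed epithelial markers, in CPM of the library total without TMM, was also higher in Ctu1 iKO, at 295.1 to 363.9 CPM against 266.9 to 282.9, while that of the 5 mesenchymal markers overlapped (7245 to 10850 against 5825 to 7514 CPM), and their part in the result was not tested.

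**Figure D2:**
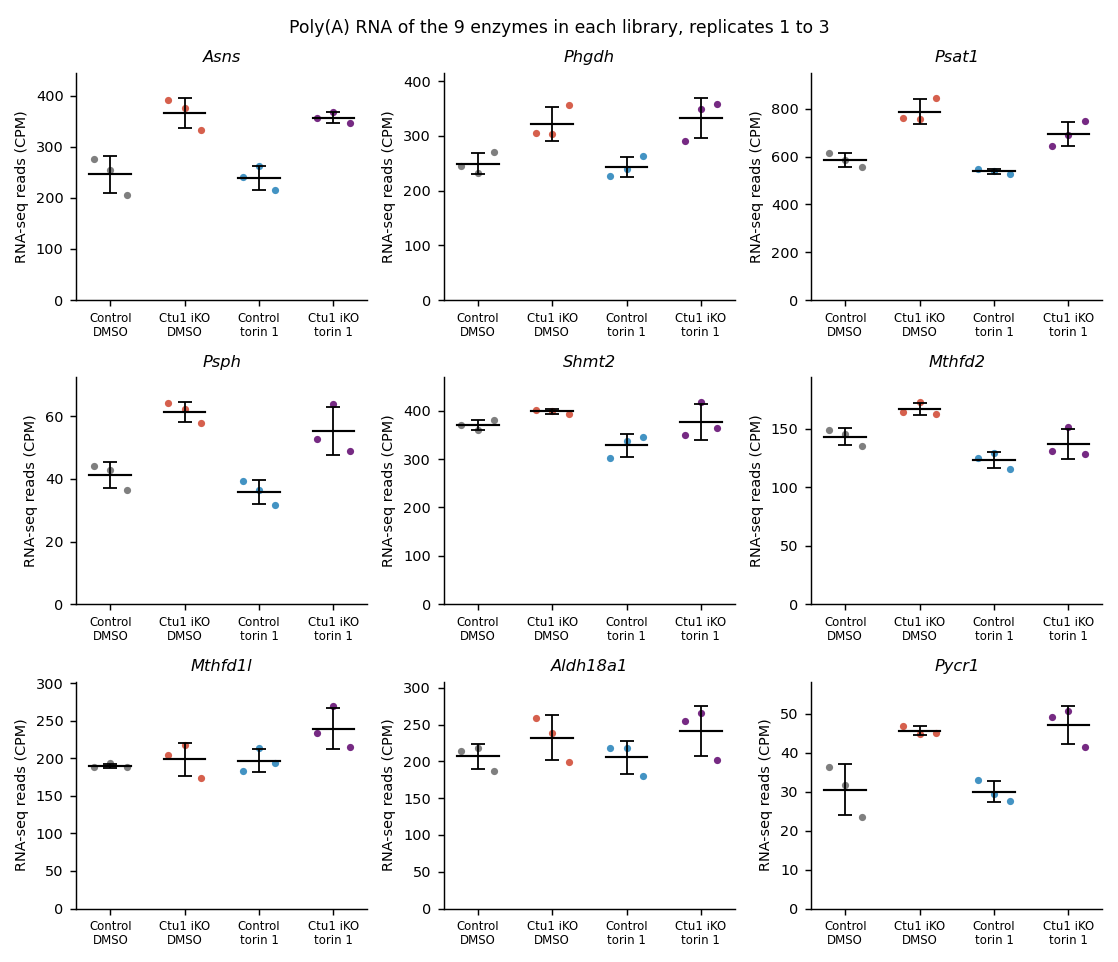
Poly(A) RNA of each enzyme in CPM (y axis, from 0) in replicates 1 to 3 of the 4 groups, with a point for each library, a bar for the mean and whiskers for the SD (n = 3). Asns, Phgdh, Psat1, Psph, Shmt2 and Pycr1 show Ctu1 iKO points above the control points with either treatment, narrowly for Shmt2, and torin 1 points lie near the DMSO points of the same genotype.

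Under torin 1, the same contrast gave higher footprints of Asns, Psph and Pycr1 in Ctu1 iKO, by 1.46-, 1.62- and 1.61-fold. These are 3 of 9 enzymes, where 2.23% of 9913 genes were called higher. The lowest, median and highest values of Asns were 372.1, 464.7 and 545.3 CPM in Ctu1 iKO and 228.2, 305.5 and 370.6 in control. For Psph they were 113.1, 122.3 and 138.6 against 59.66, 75.05 and 89.94, and for Pycr1 46.25, 51.32 and 77.43 against 27.76, 34.01 and 41.03. No control culture reached the lowest Ctu1 iKO culture in these genes, although for Asns the gap was narrow. The log2 changes were 0.55 ± 0.13 for Asns (edgeR adjusted p = 0.0269), 0.70 ± 0.11 for Psph (0.00116) and 0.69 ± 0.15 for Pycr1 (0.0177). The call of Asns was lost in 6 of 12 fits that left out 1 library (Ctu1 iKO replicates 3 to 6 and control replicates 2 and 4), while those of Psph and Pycr1 were kept in the 12.

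The other serine enzymes, which had been called with DMSO, were not called under torin 1. Phgdh changed by 0.16 ± 0.08 (edgeR adjusted p = 0.315) and Psat1 by 0.13 ± 0.10 (0.577), with overlapping groups. Mthfd1l stood at -0.18 ± 0.13 on the log2 scale (adjusted p = 0.521), and Shmt2, Mthfd2 and Aldh18a1 had changes of 0.21, 0.03 and 0.10 that did not pass. Cct6a was lower by this contrast (-0.45 ± 0.11, adjusted p = 0.0300), opposite in sign to Psph, with which it shares bases.

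In RNA under torin 1, Asns (0.59 ± 0.09, edgeR adjusted p = 0.0461) and Pycr1 (0.66 ± 0.11, 0.0492) were higher in Ctu1 iKO, where 0.953% of 9650 genes were called higher. Asns read 356.2, 367.5 and 346.7 CPM against 240.4, 262.2 and 214.6, and Pycr1 read 49.14, 50.67 and 41.52 against 33.07, 29.52 and 27.52. Psph read 52.73, 63.71 and 48.95 CPM against 39.39, 36.53 and 31.58, and its log2 change of 0.63 ± 0.13 did not pass (adjusted p = 0.0653). Phgdh (0.46 ± 0.11, adjusted p = 0.0873) and Psat1 (0.38 ± 0.08, 0.0773) also had no overlap between groups, nor had Shmt2 and Mthfd1l, which were not called. With the replicate block 8 enzymes were higher, where 17.3% of genes were, and Mthfd2 (0.16, adjusted p = 0.0611) was the one not called. No RNA change of an enzyme passed in this comparison with library totals in place of TMM (1.02% of genes called in either direction) or with all replicates as labelled (0%), and both calls were lost in 5 of 6 fits that left out 1 library. Summed marker levels were higher in Ctu1 iKO here as well, at 477.6 to 525.9 against 344.9 to 378.4 CPM for 3 epithelial markers and 11430 to 19680 against 7676 to 9707 CPM for 5 mesenchymal markers, and their part was not tested.

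**Figure D3:**
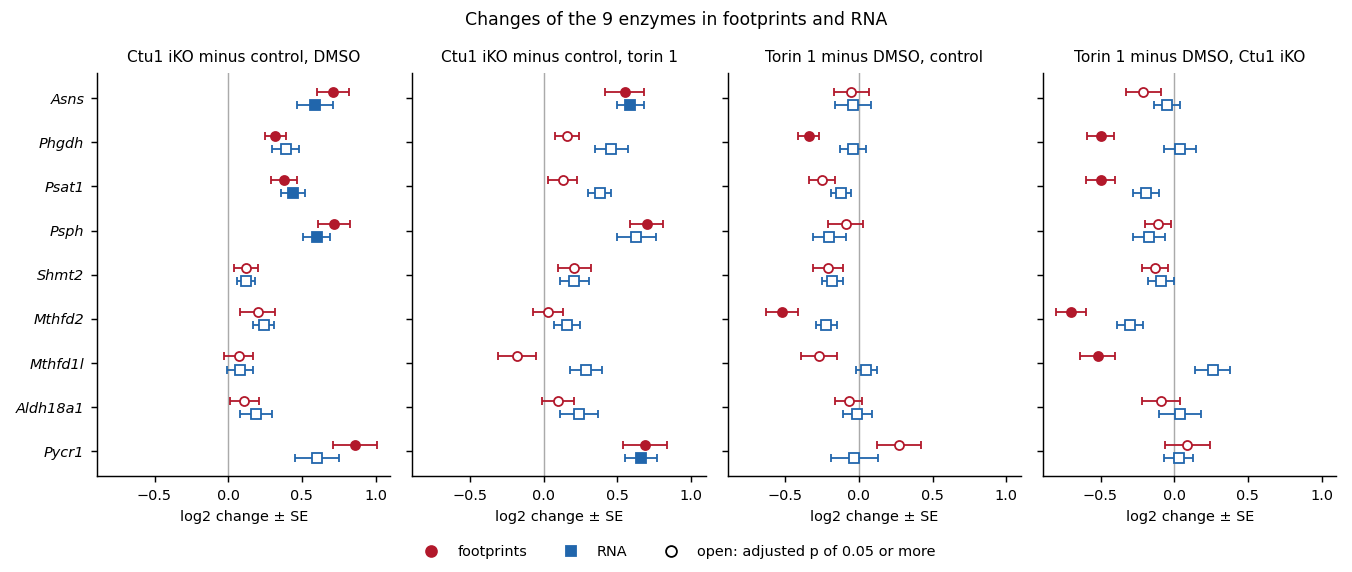
Log2 change with its SE (x axis) of each enzyme in footprints (red circles, n = 5 or 6 a group) and in RNA (blue squares, n = 3 a group) for the 4 comparisons, with filled symbols at an edgeR adjusted p under 0.05. With torin 1 in either genotype the footprints of Phgdh, Psat1, Mthfd2 and Mthfd1l lie to the left of their RNA. For Ctu1 loss with DMSO the widest gap drawn is that of Pycr1 (0.86 in footprints and 0.60 in RNA), over unlike sets of replicates. Over replicates 1 to 3 of both assays the log2 difference was 0.20 for Psph and 0.19 for Pycr1.

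Torin 1 lowered the footprints of Phgdh and Mthfd2 in control cells, to 0.79 and 0.70 of the DMSO level. These were 2 of 9 enzymes, where 4.33% of 9856 genes were called lower, and no enzyme was higher. Mthfd2 had a lowest, median and highest value of 72.62, 83.48 and 99.38 CPM with torin 1 and 101.4, 116.9 and 148.2 with DMSO. For Phgdh these were 223.1, 241.8 and 262.4 against 284.5, 304.2 and 332.9. The groups did not overlap in either gene, although for Mthfd2 the ranges came close. The log2 changes were -0.52 ± 0.11 for Mthfd2 (edgeR adjusted p = 0.00893) and -0.34 ± 0.07 for Phgdh (0.00780).

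The other changes in control cells did not pass the test. Psat1 changed by -0.25 ± 0.09 (edgeR adjusted p = 0.115), Shmt2 by -0.21 ± 0.10 (0.267) and Mthfd1l by -0.27 ± 0.12 (0.218). The lowest Mthfd1l value, 106.6 CPM in control torin 1 replicate 1, stood apart from the 161.6 to 185.6 of the other 5, and without that library the change was -0.17 (adjusted p = 0.242). Asns was at -0.05 ± 0.12, Psph at -0.09 ± 0.12, Aldh18a1 at -0.07 ± 0.09 and Pycr1 at 0.27 ± 0.15 (adjusted p = 0.877, 0.735, 0.746 and 0.360). Same-numbered footprint libraries of these 2 groups also deviated together, again without a comparison of different numbers. With the replicate block 4 enzymes were lower, where 10.6% of genes were, which added Psat1 (-0.26, adjusted p = 0.00235) and Shmt2 (-0.22, 0.0225).

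In Ctu1 iKO cells, torin 1 lowered the footprints of Phgdh, Psat1, Mthfd2 and Mthfd1l, which were 4 of 9 enzymes, where 4.52% of 9855 genes were called lower. Mthfd2 read 119.0, 130.5, 141.9, 158.3 and 148.8 CPM with DMSO and 80.39, 85.63 and 95.75 (lowest, median, highest) with torin 1. Psat1 fell from the 666.1 to 864.9 CPM given above to 446.0, 558.0 and 591.4, and Phgdh from 352.9 to 425.2 CPM to 249.5, 264.1 and 307.3. These 3 genes had no overlap. Mthfd1l read 234.6, 215.4, 219.8, 188.4 and 170.3 CPM with DMSO and 113.0, 148.0 and 167.2 with torin 1, also without overlap.

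The log2 changes were -0.70 ± 0.10 for Mthfd2 (edgeR adjusted p = 0.000372), -0.50 ± 0.09 for Phgdh (0.00181), -0.50 ± 0.10 for Psat1 (0.00652) and -0.52 ± 0.12 for Mthfd1l (0.0136). Asns (-0.21 ± 0.12, adjusted p = 0.341), Psph (-0.11 ± 0.09, 0.545), Shmt2 (-0.13 ± 0.09, 0.486), Aldh18a1 (-0.09 ± 0.13, 0.761) and Pycr1 (0.09 ± 0.15, 0.795) did not pass. The enzymes that rose most with Ctu1 loss, Asns, Psph and Pycr1, were thus not among those called lower with torin 1. Each footprint call of both torin 1 comparisons was kept when any 1 library was left out.

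The torin 1 effect was not shown to differ between genotypes for any enzyme. In the interaction of torin 1 and Ctu1 loss, 0 of 9 enzymes passed in footprints with edgeR, where 0.639% of 9857 genes were called in either direction, and 0 had an unadjusted p under 0.05. The largest differences were -0.25 ± 0.13 for Psat1 and -0.25 ± 0.17 for Mthfd1l (adjusted p = 1 for both). In RNA, 0 of 9 enzymes and 0% of 9616 genes passed, and 0 enzymes had an unadjusted p under 0.05. DESeq2 also called 0 enzymes in both assays. Of all genes it called 7 of 9857 higher and 100 lower in footprints, and 3 of 9616 higher and 0 lower in RNA. With the replicate block no enzyme passed either, although Psat1 footprints (-0.26 ± 0.07, edgeR adjusted p = 0.121) and Mthfd1l RNA (0.22 ± 0.09, edgeR adjusted p = 0.740) then lay under 0.05 before adjustment. Of all genes, 6 were then called higher and 133 lower in footprints, and 0 in RNA. Psat1 footprints of replicates 3 to 6 alone were at -0.30 ± 0.10 (edgeR adjusted p = 0.427) and also lay under 0.05 before adjustment.

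In RNA, no enzyme was called for torin 1 in either genotype with edgeR, where 13.1% of 9617 genes in control and 8.25% of 9619 genes in Ctu1 iKO were called in either direction. Unadjusted p-values were under 0.05 for 2 enzymes in control and 1 in Ctu1 iKO, and DESeq2 called Mthfd2 in each genotype (-0.21 and -0.29, adjusted p = 0.0360 and 0.0329), where 11% and 8.49% of genes were called lower. Mthfd2 RNA read 125.0, 129.0 and 115.9 CPM with torin 1 and 148.7, 145.6 and 135.0 with DMSO in control cells. In Ctu1 iKO cells it read 130.9, 151.4 and 128.7 against 164.3, 173.0 and 162.9. The values did not overlap in either genotype, and the edgeR log2 changes were -0.22 ± 0.07 and -0.30 ± 0.09 (adjusted p = 0.0924 and 0.0922).

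With the replicate block, RNA of 4 enzymes was lower with torin 1 in control cells, where 23% of genes were. These were Mthfd2 (-0.22, adjusted p = 0.00176), Psph (-0.20, 0.00543), Shmt2 (-0.18, 0.0102) and Psat1 (-0.12, 0.0300). In Ctu1 iKO cells the block gave Mthfd2 (-0.30, adjusted p = 0.00663) and Psat1 (-0.19, 0.0263) as lower, where 18.1% of genes were, and Mthfd1l (0.26, 0.0116) as higher, where 17.1% were. For Mthfd1l, RNA thus pointed up and footprints down in Ctu1 iKO cells with torin 1. The summed RNA levels of the markers given above were higher with torin 1 than with DMSO in both genotypes and without overlap, for the 5 mesenchymal markers and for the epithelial ones, of which 3 were listed with torin 1 and 4 with DMSO. Their part in the torin 1 results was not tested.

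Translational efficiency, which sets the footprint change of a gene against its RNA change, was tested over replicates 1 to 3 as an interaction of assay and group. No enzyme passed with edgeR in any of the 4 comparisons. For Ctu1 loss with DMSO the log2 values of the enzymes ran from -0.08 (Psat1) to 0.20 (Psph), with 0 at an unadjusted p under 0.05 and 0% of 10117 genes called. Under torin 1 they ran from -0.44 (Mthfd1l) to 0.12 (Shmt2), with 0 at an unadjusted p under 0.05 and 0.114% of 9644 genes called. DESeq2 called 0 enzymes in either, where it called 6 genes higher and 15 lower with DMSO, and 14 and 85 under torin 1.

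For torin 1 the lowest values were those of Mthfd1l and Phgdh. In Ctu1 iKO cells they were -0.91 ± 0.21 for Mthfd1l (edgeR adjusted p = 0.0577) and -0.61 ± 0.16 for Phgdh (0.119), where 1.77% of 9615 genes were called, and 3 enzymes had an unadjusted p under 0.05. DESeq2 called both lower (adjusted p = 0.00283 and 0.00949), where 2.62% of genes were, and edgeR with a term for each shared group and number called Mthfd1l (-0.93, adjusted p = 0.0260), where 1.93% were. In control cells they were -0.35 ± 0.24 and -0.31 ± 0.13 (edgeR adjusted p = 0.922 and 0.683), where 1.18% of 9616 genes were called. There 1 enzyme, Phgdh, had an unadjusted p under 0.05. DESeq2 called 0 enzymes in control, where it called 44 genes higher and 183 lower.

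Between same-numbered libraries, the log2 ratio of Mthfd1l footprint CPM to RNA CPM was 0.20, -0.01 and 0.34 in Ctu1 iKO cultures with DMSO and -1.05, -0.69 and -0.53 with torin 1. For Phgdh it was 0.30, 0.33 and 0.25 with DMSO and -0.08, -0.38 and -0.46 with torin 1. Neither gene overlapped between treatments in Ctu1 iKO. In control cultures Mthfd1l went from 0.04, -0.17 and 0.20 to -0.78, -0.21 and -0.09, which overlapped, and Phgdh from 0.33, 0.45 and 0.15 to -0.03, 0.05 and -0.06, which did not.

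**Figure D4:**
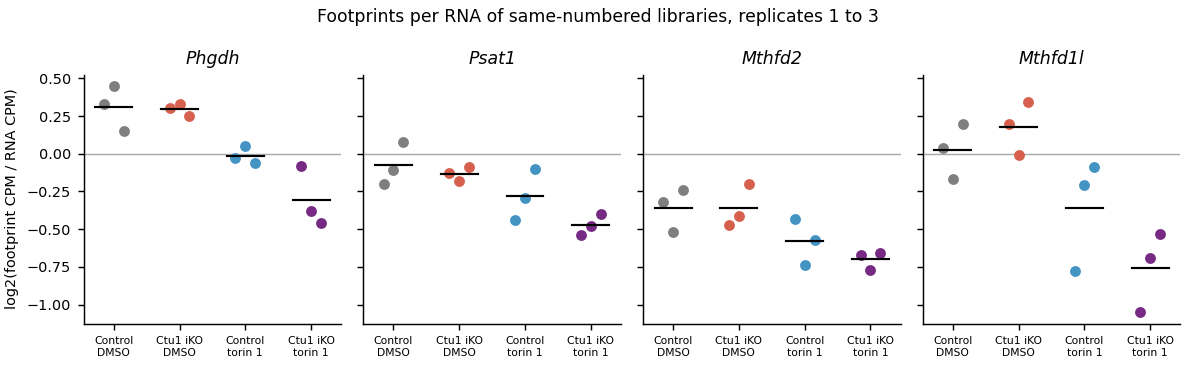
Log2 ratio of footprint CPM to RNA CPM (y axis) of same-numbered libraries, replicates 1 to 3, for Phgdh, Psat1, Mthfd2 and Mthfd1l, with a point for each pair of libraries and a bar for the mean (n = 3). In Ctu1 iKO the torin 1 points of each of the 4 genes lie below the DMSO points.

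Other genes of the same pathways were examined as lists of 48 genes, of which 37 were tested with DMSO and 32 in comparisons with torin 1 libraries. With Ctu1 loss, footprints of 2 of 37 were higher with DMSO, where 1.63% of all tested genes were, and none was lower. Aldh1l2, the mitochondrial dehydrogenase that oxidizes 10-formyltetrahydrofolate, changed by 1.14 ± 0.23 on the log2 scale (edgeR adjusted p = 0.0198), and Cth, which makes cysteine from cystathionine, by 0.73 ± 0.14 (0.0132). Under torin 1 both were higher again (1.30 ± 0.18, adjusted p = 0.000471, and 0.64 ± 0.17, 0.0429), and Ahcy, the hydrolase of S-adenosylhomocysteine, was lower (-0.53 ± 0.10, 0.00776), which makes 2 of 32 higher and 1 lower where 2.23% and 2.6% of tested genes were. The median log2 change of the tested genes of the 4 lists together was -0.03 in both comparisons, against 0 and 0.012 over all genes.

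With torin 1, footprints of 5 of 32 pathway genes were lower in control and 6 of 32 in Ctu1 iKO, where 4.33% and 4.52% of tested genes were, and none was higher. In both genotypes these included Slc25a32, the mitochondrial folate carrier (-0.92 ± 0.11 and -0.74 ± 0.17), Mat2a, which makes S-adenosylmethionine (-0.80 ± 0.19 and -0.79 ± 0.22), Ahcy (-0.37 ± 0.08 and -0.87 ± 0.10) and Glud1, the glutamate dehydrogenase (-0.39 ± 0.08 and -0.65 ± 0.14). Their edgeR adjusted p-values ran from 5.63e-05 for Ahcy in Ctu1 iKO to 0.0382 for Mat2a in Ctu1 iKO. In control alone the folate carrier Slc19a1 passed (-0.55 ± 0.11, edgeR adjusted p = 0.00451). In Ctu1 iKO alone the mitochondrial serine carrier Sfxn1 passed (-0.52 ± 0.11, 0.0109), as did a gene outside the 5 largest changes that are named. The difference between genotypes was not called for any of the 32.

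In RNA, torin 1 gave 5 lower and 1 higher of 32 pathway genes in control, where 7.4% and 5.69% of tested genes were called in those directions, and 4 lower and 1 higher in Ctu1 iKO, where 4.52% and 3.73% were. Slc25a32 and Mat2a RNA were lower with torin 1 in control (-0.85 ± 0.09 and -0.89 ± 0.15, edgeR adjusted p = 0.00260 and 0.00986) and in Ctu1 iKO (-0.76 ± 0.18 and -1.04 ± 0.15, 0.0431 and 0.0101), as was Slc19a1 (-0.65 ± 0.11 and -0.63 ± 0.08, 0.00952 and 0.00742). Glud1 RNA was higher in both genotypes (0.33 ± 0.06 and 0.39 ± 0.08, 0.0178 and 0.0301), opposite in sign to its footprints. Srr, serine racemase, was lower in control (-0.25 ± 0.06, 0.0378). With Ctu1 loss, RNA of 2 of 37 pathway genes was higher with DMSO and 1 of 32 with torin 1, where 3.32% and 0.953% of tested genes were, and none was lower. RNA of Cth was higher with DMSO (0.67 ± 0.12, 0.0303) and torin 1 (0.55 ± 0.10, 0.0492).

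Of 10 genes known to regulate these enzymes, 4 had higher footprints in Ctu1 iKO with either treatment, where 1.63% of tested genes with DMSO and 2.23% with torin 1 were called higher. These were Atf4, Atf5, Trib3 and Ddit3. Atf4 footprints had a lowest, median and highest value of 173.7, 179.1 and 218.2 CPM in Ctu1 iKO with DMSO and 85.12, 97.7 and 108.4 in control, and of 104.8, 119 and 142.4 against 55.95, 67.9 and 81.79 with torin 1. The ranges did not overlap for either treatment. The log2 changes of Atf4 were 0.99 ± 0.10 with DMSO (edgeR adjusted p = 0.000270) and 0.83 ± 0.12 with torin 1 (0.000839). Atf5, a related factor, changed by 1.74 ± 0.19 and 1.25 ± 0.23, Trib3, a pseudokinase induced by Atf4, by 1.2 ± 0.17 and 1.37 ± 0.26, and Ddit3, the stress factor also called CHOP, by 1.41 ± 0.30 and 1.09 ± 0.27.

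Torin 1 lowered Atf4 footprints in control (-0.51 ± 0.11, edgeR adjusted p = 0.00932) and in Ctu1 iKO (-0.67 ± 0.12, 0.00197), and Trib3 (-1.43 ± 0.25 and -1.26 ± 0.17, 0.00198 and 0.000311). Myc was lower in control (-0.39 ± 0.10, 0.0224), and Atf5 (-0.75 ± 0.19, 0.0267) and Gcn1, which activates the kinase of the amino acid response, (-0.47 ± 0.11, 0.0186) were lower in Ctu1 iKO. Eif2ak4, that kinase, and Cebpb, Cebpg and Nupr1 were not called in footprints in any of the 4 comparisons. In RNA, 5 of the 10 regulators were higher in Ctu1 iKO with DMSO (Atf4, Atf5, Ddit3, Trib3 and Nupr1) and 3 with torin 1 (Atf4, Atf5 and Ddit3), where 3.32% and 0.953% of tested genes were. With torin 1, RNA of 2 was lower in control (Atf4 and Trib3) and of 3 in Ctu1 iKO (Atf4, Trib3 and Ddit3), where 7.4% and 4.52% of genes were. Atf4 RNA was higher in Ctu1 iKO (0.64 ± 0.07 with DMSO and 0.52 ± 0.09 with torin 1, 0.00789 and 0.0471) and lower with torin 1 (-0.67 ± 0.07 in control and -0.78 ± 0.08 in Ctu1 iKO, 0.00238 and 0.00481). Among the enzymes called higher in footprints with Ctu1 loss under DMSO, as Atf4 was, Phgdh was also called lower with torin 1 in both genotypes and Psat1 in Ctu1 iKO, while Asns, Psph and Pycr1 were not called with torin 1.

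**Figure D5:**
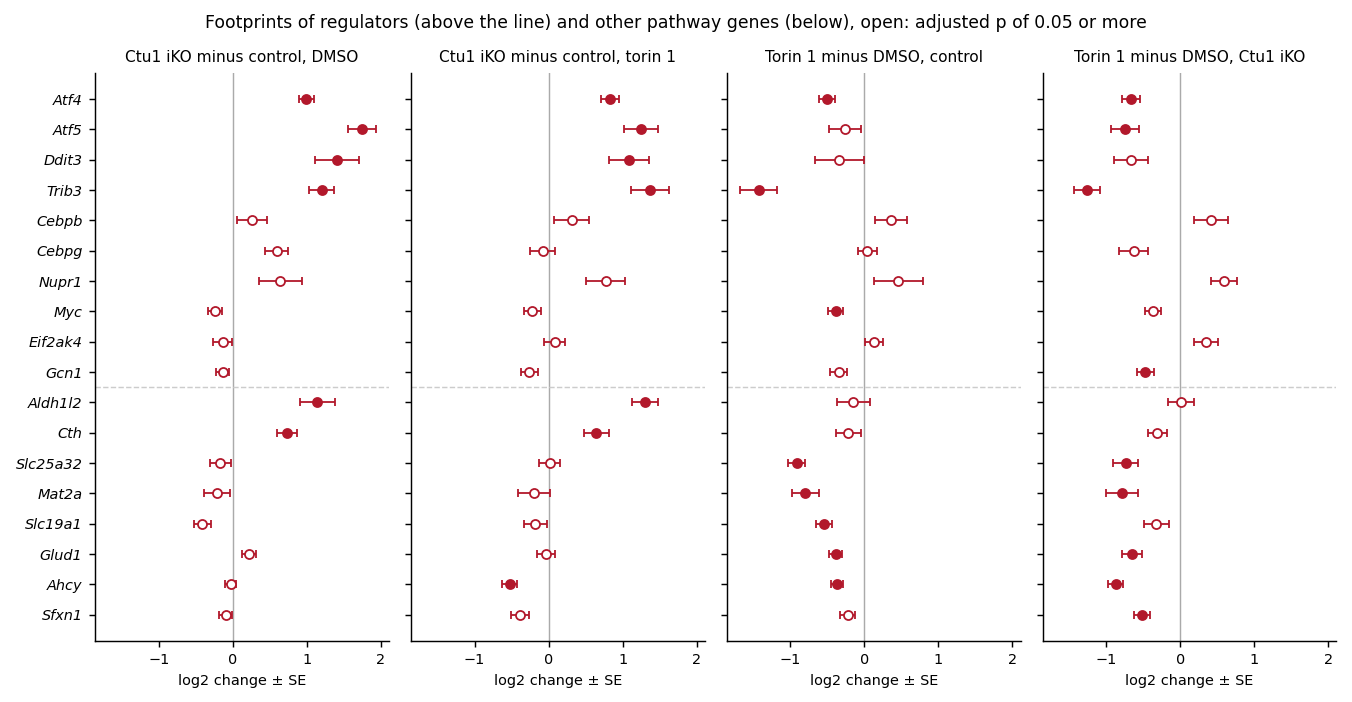
Log2 change in footprints with its SE (x axis) of the 10 regulators (above the dashed line) and the named pathway genes (below) in the 4 comparisons, filled at an edgeR adjusted p under 0.05 (n = 5 or 6 a group). Atf4 and Trib3 are filled to the right for Ctu1 loss and to the left for torin 1, and Aldh1l2 and Cth are filled to the right for Ctu1 loss.

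Within groups, the enzymes did not vary as one unit. After the mean of each group and of replicates 1 to 2 or 3 to 6 within it was taken away, Pearson's r between pairs of enzymes over the 23 footprint libraries had a median of 0.03 over 36 pairs and ran from -0.67 (Phgdh and Mthfd2) to 0.75 (Shmt2 and Mthfd1l). Asns and Psph reached 0.71. The points share library depth and preparation, and these values are a description. Of 8847 other genes, those whose deviations were most like the mean of the enzymes were Alkbh8 (0.86), a tRNA wobble methyltransferase, Stx18 (0.80), Rras (0.78), Cope (0.76), Qk (0.75) and Drap1 (0.75).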

How the data were processed

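Counts per gene were used as the authors deposited them, unnormalized, for 46 libraries. Per the labels and the authors' methods, footprint reads were trimmed with cutadapt 3.4, identifiers extracted with UMI-tools 1.1.1, rRNA removed and reads counted with STAR 2.5.3a. The labels name GRCm38, the methods a human genome, and the symbols are those of mouse. RNA-seq counts are from paired-end TruSeq stranded libraries, and each was even. The DMSO tables held 10420 entries and those with torin 1 held 9936, and every symbol had a footprint count of at least 100 in some library. No column of other samples was used.

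The quasi-likelihood test of edgeR 4.0.16 (R 4.3.3, TMM factors) was run on symbols whose mean count reached 10, with Benjamini-Hochberg adjustment over all of them and a threshold of 0.05, in a fit of the groups compared, over all replicates for footprints and 1 to 3 for RNA and translational efficiency. SE is the log2 change over the root of F. Footprint and RNA libraries were matched by group and replicate number. The methods and the RNA-seq legend describe 2 independent replicates, and the footprint legends more. Whether the 3 RNA libraries tested per group came from separate experiments is not given in the sources used here, so p-values may reflect technical spread. The main fits had no replicate term. Deviations of same-numbered libraries correlated above 0.1 in every pair for the RNA comparisons (lowest r 0.49). So they did for footprints of torin 1 in control (0.46) and Ctu1 loss with torin 1 (0.34), and the numbers were treated as pairs there. Different-numbered libraries were not compared, so these values cannot tell pairs from a split between sets of replicates, such as that in RNA-seq depth. SEs include the spread between libraries.

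Alternatives were DESeq2 1.42.0, library totals, other filters, the replicate block, a term for replicates 1 and 2 against the later ones, subsets of replicates, halved RNA counts, 1 fit of the 4 groups and leaving out each library. Scripts were tested on simulated data. The enzymes and gene lists were chosen with earlier results of these data known. Named genes were the enzymes, up to 5 called pathway genes a comparison and assay with the largest change, the regulators, and the 6 most similar genes. The result of 1 pathway gene is not reported here. Copies were found with BLAST 2.17.0 at 90% identity or more. Sequences are from RefSeq (GRCm38.p6), and each enzyme had a promoter window. Figures were drawn with matplotlib 3.10.9 and tables handled with pandas 2.3.3 in Python 3.11.15.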

Additional observations from a re-analysis of the deposited data

Results flagged for a closer look

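In 36 groups of footprint values (9 enzymes in 4 groups of 5 or 6 libraries), 1 library stood farther from the rest of its group than Dixon's 95% limit allows, and chance alone gives about 1 in 20 groups. It was control torin 1 replicate 1 for Mthfd1l, at 106.6 CPM against 161.6 to 185.6 CPM in the other 5 libraries.

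RNA-seq libraries numbered 4 to 6 entered the alternative with all replicates as labelled, and no test given in the report as its main value. Within them, the 2 libraries labelled Ctu1 iKO with DMSO lay above the highest of the 3 control DMSO libraries for 8 of the 9 enzymes, as did 32% of the 10136 genes averaging 10 or more counts over these 5 libraries, while 36% lay below. Their lower value was 350.9 CPM for Asns (highest control 266.9 CPM), 362.1 for Phgdh (274.0), 719.4 for Psat1 (589.2) and 54.62 for Psph (50.14). It was 435.0 CPM for Shmt2 (401.9), 233.1 for Mthfd1l (203.3), 226.1 for Aldh18a1 (217.4) and 38.37 for Pycr1 (28.61). The 3 libraries labelled Ctu1 iKO with torin 1 lay above the same control DMSO libraries for Psat1, with a lowest value of 589.4 CPM against 589.2, a comparison that differs in both genotype and treatment. Against the libraries labelled control with torin 1 (520.5 to 839.5 CPM) they overlapped. By the genes that change with torin 1, both of the Ctu1 iKO DMSO libraries and 2 of the 3 Ctu1 iKO torin 1 libraries lay away from their labels, at 0.99 and 0.90 and at 0.24 and 0.27 of the way from DMSO to torin 1. No test was run on these values.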

How the results depend on the processing

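Of 19 calls of single enzymes, none changed sign in any of the fits, and 11 of the 14 footprint calls were kept whichever library was left out, the exceptions being Phgdh and Psat1 for Ctu1 loss with DMSO and Asns for Ctu1 loss with torin 1. The 5 RNA calls were each lost in 4 or 5 of the 6 fits that left out a library. The number of enzymes called changed as follows, and the cause was not tested, although the subsets by construction hold fewer libraries. Replicates 1 and 2 alone, replicates 3 to 6 alone and leaving out each library in the 2 footprint comparisons of 6 with 6 were chosen after seeing the data. The percentage after each count is the share of all tested genes called in the same direction, or in either direction beside a count of 0. In footprints, replicates 1 to 3 only gave 0 enzymes in all 4 comparisons of groups (0.0101% to 1.81%), as did replicates 1 and 2 alone (0% to 1.47%), and replicates 3 to 6 alone gave 3 for Ctu1 loss with DMSO (0.962%). A term for replicates 1 and 2 against the later ones gave 3 for torin 1 in control (6.86%) and 5 in Ctu1 iKO (7.17%). In RNA, for Ctu1 loss with DMSO, DESeq2 gave 6 (8.32%), the term 7 (13.5%), all replicates as labelled 6 (14.4%), 1 fit of all 4 groups 4 (3.51%) and replicates 1 and 2 alone 7 (8.65%), against 3 (3.32%) in the test reported. For Ctu1 loss with torin 1 in RNA, DESeq2 gave 5 (6.54%), the term 6 (7.53%), 1 fit of all 4 groups 5 (5.38%), library totals 0 (1.02%), all replicates as labelled 0 (0%) and replicates 1 and 2 alone 0 (0.124%), against 2 (0.953%). For torin 1 in RNA, DESeq2 gave 1 in control (11%) and 1 in Ctu1 iKO (8.49%). The term gave 3 lower in control (17%), and in Ctu1 iKO 2 lower (12.6%) and 1 higher (11.1%), 3 in all. In 1 fit of all 4 groups 1 was called in Ctu1 iKO (9.16%). For translational efficiency of torin 1 in Ctu1 iKO, DESeq2 (2.62%), the term (2.33%) and all replicates as labelled (2.34%) gave 2. Leaving out 1 library gave 3 to 4 enzymes for Ctu1 loss with DMSO in footprints, 0 to 3 in RNA, and 0 to 3 for Ctu1 loss with torin 1 in RNA. The share of all genes called in these fits is not given. Over all genes, DESeq2 called 383 higher and 317 lower for Ctu1 loss with DMSO in footprints against 169 and 108 with edgeR, and 842 and 688 against 336 and 182 in RNA.

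With the replicate number as a block, the count of enzymes was 4 for footprints of torin 1 in control (10.6% of genes). In RNA it was 7 (14.3%) and 8 (17.3%) for Ctu1 loss with DMSO and torin 1. For torin 1 in RNA it was 4 in control (23%) and 3 in Ctu1 iKO (18.1% lower and 17.1% higher). For translational efficiency of torin 1 in Ctu1 iKO the block, a term for each shared group and number, gave 1 (1.93%). For footprints of Ctu1 loss with DMSO and of torin 1 in Ctu1 iKO, same-numbered libraries did not all deviate together (lowest r -0.10 and -0.04), so the numbers were not taken as pairs there. The block gave 4 enzymes for the first, without Phgdh (edgeR adjusted p = 0.0598), where 195 of 10397 genes were higher. It gave 4 for the second, where 527 of 9855 genes were lower. The block changed no other call of an enzyme.

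The values that changed sign were all uncalled, both in the tests reported and under the alternatives, and their cause was not tested. With all replicates as labelled, whose RNA-seq labels are in doubt, RNA of torin 1 in control was 0.24 for Asns, 0.13 for Phgdh, 0.14 for Psat1, 0.24 for Psph, 0.02 for Aldh18a1 and 0.26 for Pycr1. Torin 1 in Ctu1 iKO was -0.10 for Phgdh, -0.08 for Aldh18a1 and -0.11 for Pycr1, Mthfd2 was -0.03 for Ctu1 loss with torin 1, and the interaction was -0.21 for Phgdh, -0.49 for Psph, -0.03 for Shmt2, -0.08 for Aldh18a1 and -0.36 for Pycr1. In translational efficiency the same setting gave -0.02 for Shmt2 and -0.09 for Mthfd1l (Ctu1 loss with DMSO), -0.33 for Psph (torin 1 in control), 0.01 for Shmt2 (torin 1 in Ctu1 iKO), and 0.32 for Asns, 0.59 for Psph and 0.04 for Mthfd2 (Ctu1 loss with torin 1). With library totals, footprints were 0.04 for Asns and 0.02 for Aldh18a1 (torin 1 in control) and 0.01 for Aldh18a1 (in Ctu1 iKO), and RNA of torin 1 in Ctu1 iKO was -0.02 for Phgdh, -0.02 for Aldh18a1 and -0.03 for Pycr1. Translational efficiency with library totals was 0.03 for Phgdh and 0.04 for Mthfd2 (Ctu1 loss with DMSO), 0.04 for Asns, 0.02 for Shmt2 and 0.04 for Aldh18a1 (torin 1 in control), 0.10 for Shmt2 (in Ctu1 iKO), and 0.05 for Asns and 0.04 for Psph (Ctu1 loss with torin 1). Replicates 3 to 6 alone gave -0.07 for Mthfd1l (Ctu1 loss with DMSO), 0.04 for Asns (torin 1 in control) and 0.09 for Psph (interaction) in footprints. Psph was 0.13 for torin 1 in control with replicates 1 to 3 only and 0.20 with replicates 1 and 2 alone. Replicates 1 and 2 alone also gave 0.09 for Aldh18a1 (footprint interaction), 0.02 for Aldh18a1 (RNA, torin 1 in control) and 0.01 for Asns (translational efficiency, Ctu1 loss with torin 1).

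Leaving out 1 library also moved uncalled values across 0. The ranges in footprints were -0.11 to 0.03 for Asns (torin 1 in control), -0.02 to 0.08 for Mthfd2 (Ctu1 loss with torin 1), -0.03 to 0.14 for Pycr1 (torin 1 in Ctu1 iKO), and for the interaction -0.10 to 0.04 for Aldh18a1 and -0.08 to 0.04 for Psph. In RNA of torin 1 in control they were -0.07 to 0.08 for Aldh18a1, -0.15 to 0.05 for Asns, -0.01 to 0.10 for Mthfd1l, -0.10 to 0.03 for Phgdh and -0.18 to 0.12 for Pycr1. In RNA of torin 1 in Ctu1 iKO they were -0.05 to 0.15 for Aldh18a1, -0.11 to 0.01 for Asns, -0.02 to 0.13 for Phgdh and -0.02 to 0.11 for Pycr1. In the RNA interaction they were -0.04 to 0.17 for Aldh18a1, -0.07 to 0.12 for Psph and -0.11 to 0.23 for Pycr1. In translational efficiency they were -0.08 to 0.18 for Asns, -0.10 to 0.04 for Mthfd2 and -0.11 to 0.03 for Phgdh (Ctu1 loss with DMSO), -0.20 to 0.16 for Asns, -0.16 to 0.09 for Psph and -0.10 to 0.12 for Pycr1 (Ctu1 loss with torin 1), -0.29 to 0.04 for Asns (torin 1 in control), and -0.04 to 0.22 for Psph and -0.11 to 0.14 for Pycr1 (torin 1 in Ctu1 iKO). The log2 difference of Ctu1 itself ran from -0.62 to -0.39 in footprints and from -0.049 to 0.044 in RNA.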

Other observations

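In the RNA-seq libraries labelled control with torin 1, replicates 5 and 6 lay above replicates 1 to 4 for 7 of the 9 enzymes, the exceptions being Mthfd1l and Aldh18a1. Over 9675 genes averaging 10 or more counts in these 6 libraries, 24.5% lay above in the same way and 23.2% below. Asns was at 401.2 and 391.7 CPM against 194.1 to 262.2, and Psat1 at 839.5 and 825.2 CPM against 520.5 to 547.3. Psph was at 83.82 and 63.97 CPM against 28.59 to 39.39, and Mthfd2 at 191.3 and 173.1 CPM against 105.1 to 129.0. Phgdh was at 391.1 and 312.9 CPM against 227.5 to 262.6, Shmt2 at 414.8 and 373.7 CPM against 301.5 to 357.9, and Pycr1 at 44.84 and 34.83 CPM against 22.62 to 33.07. In those labelled Ctu1 iKO with torin 1, replicates 5 and 6 were at 260.1 and 288.0 CPM for Asns against 346.7 to 367.5 in replicates 1 to 4, and at 32.08 and 26.51 CPM for Pycr1 against 41.52 to 50.67. In RNA, Asns of replicates 5 and 6 was thus higher in the libraries labelled control than in those labelled Ctu1 iKO. In footprints of the same numbers the order was the other way, with 370.6 and 357.8 CPM in control and 545.3 and 484.8 CPM in Ctu1 iKO.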
